A study of Arabidopsis thaliana with 39 samples.

Results

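The genes described here had lower RNA levels in Arabidopsis thaliana roots 3 h after the start of a nutrient experiment than at its start, and were higher again at 9 h. They were chosen by measured values. For each row of the array that names exactly 1 gene and has a mean of at least 3 on the deposited log2 scale over all arrays, 3 averages were formed: time 0 (3 arrays), 3 h (12 arrays of 4 media) and 9 h (12 arrays of the same 4 media). The difference of time 0 minus 3 h is called the fall, and that of 9 h minus 3 h the return. The 60 rows in which the smaller of these differences was highest are the members, out of 8234 rows that met both conditions and 28501 rows in all. GH3.1, GH3.3, WES1 and SIS were left out by the rule. Of these, SIS would have ranked 48, with a smaller difference of 0.38, while WES1 (rank 773) and GH3.1 (rank 1911) were far from the set and GH3.3 had a mean below 3. The 60 rows stand for 59 genes, because AT5G63190, which encodes an MA3-domain translation factor, has 2 rows. Because fall and return chose the members, they are given as a description with no test.

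All plants were wild-type Columbia-0, 10 days old at the start and grown with 1 mM phosphate. Roots were taken at time 0 in full medium, and later, at 3, 6 and 9 h, from 4 media: full, lacking phosphate, lacking iron, or lacking both nutrients. Each of the 13 groups has 3 arrays. The protocol describes a transfer for the 3 deprived media and does not say whether plants in full medium were moved as well. No untreated plants of the later times were measured apart from the full-medium groups, so the hours since time 0, handling, plant age and time of day cannot be told apart. The labels do not tell whether replicates are separate cultures, and p-values reflect only how far these samples scatter, which may be technical. The samples are bulk RNA of whole roots, in which fewer cells of a type and less RNA per cell cannot be told apart.

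Root growth depends on enzymes and structural proteins that are secreted into the cell wall. Xyloglucan endotransglucosylase/hydrolases cut and rejoin the hemicellulose xyloglucan, extensins are wall glycoproteins that can be cross-linked, and class III peroxidases use hydrogen peroxide to cross-link or loosen wall material. Root hairs, the outgrowths of single epidermal cells that take up water and ions, carry many members of these families. Regulators such as basic helix-loop-helix and MYB-related transcription factors bind promoters and set the transcription of other genes. Phosphate and iron supply act on root growth together, since low phosphate changes where iron collects in the root tip.

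The tissue label could be set against few genes. A listed gene counted only if RefSeq held its name and a row named it alone, so others may still be measured. Of 25 listed root markers 1 had a row of its own, the root hair expansin EXPA7 at a mean level of 5.06. Of 22 listed shoot markers 2 had one: RCA, the activase of the carbon-fixing enzyme Rubisco, at 6.98, and LHCB4.1, an antenna protein of photosystem II, at 5.18. The levels of different rows are not comparable on this array, so the values neither rank the tissues nor measure shoot material. RCA differed by 0.02 (SE 0.55) between 3 h and time 0 and by -0.57 (SE 0.35) between 9 h and 3 h, and LHCB4.1 by 0.36 (SE 0.53) and -0.25 (SE 0.33). Neither followed the low-then-high order of the members, and the part of shoot material in the results was not tested further.

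Across the 60 members the fall ran from 0.35 to 1.17 with a median of 0.54, a 1.45-fold lower level at 3 h. The return ran from 0.35 to 1.43 with a median of 0.50. Over all 8234 rows that met the conditions, the median fall was -0.02 and the median return 0.02. The member average was between 5.30 and 5.69 on the time 0 arrays, between 4.79 and 5.03 at 3 h, between 4.90 and 5.33 at 6 h and between 5.29 and 5.64 at 9 h. The 3 h arrays all lay below the time 0 and the 9 h arrays in this average, and the 6 h arrays lay between or overlapped with both. The average of all 8234 rows stayed between 4.98 and 5.10 on every array.

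**Figure D1:**
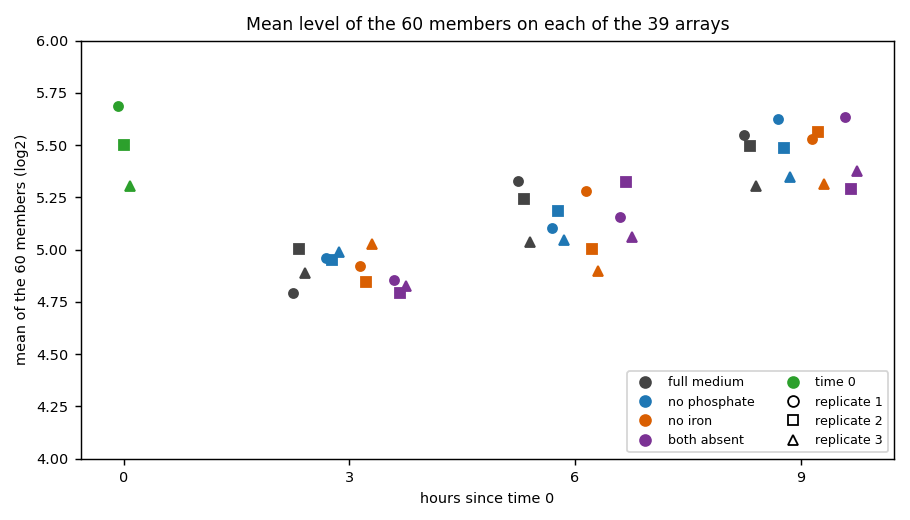
Mean deposited log2 value of the 60 members on each of the 39 arrays, by hours since time 0 (x axis) and medium. The 3 h arrays sit between 4.79 and 5.03, below the lowest time 0 array at 5.30 and the lowest 9 h array at 5.29; the members were chosen for this order.

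Single genes were less clean than their average. Every 3 h array was below every time 0 array for 10 members, beside 1.25% of all rows, and below every 9 h array for 4 members, beside 0.0982% of all rows. Both held for 2 members, AT1G27660 and AT4G13400. The rule used these arrays, so nothing is read from the counts. By the 9 h average, 27 members were above their time 0 level and 33 below it, and the difference of 9 h minus time 0 had a median of -0.03 and a range of -0.73 to 0.65. The last rows inside the set were AT5G22555, the second row of AT5G63190 and AT1G14200, a RING-type protein of ubiquitin ligation, all with a smaller difference of 0.35. The first rows outside were AT5G21280, AT3G46450 and AT3G07670, also at 0.35 when rounded, so the border of the set is not a step in the data.

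Of the 60 rows, 41 could be given a role from general knowledge, and 19 were left without one. The regulators, 13 rows of 12 genes, had a median fall of 0.54 and a median return of 0.54. AT4G28800, a basic helix-loop-helix transcription factor, had the highest value under the rule. Its time 0 arrays read 4.95, 5.33 and 4.50, its 3 h arrays had a lowest, median and highest value of 2.92, 4.06 and 4.81, and its 9 h arrays of 3.93, 5.19 and 5.71. The 3 h values reached into the time 0 and 9 h ranges, although the fall was 0.97 and the return 1.1. At 6 h its arrays ran from 3.80 to 5.54 with a median of 4.51.

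AT1G27660, a second basic helix-loop-helix factor, had time 0 values of 3.67, 3.58 and 3.76. Its 3 h values ran from 2.79 over a median of 3.16 to 3.58, and its 9 h values from 3.66 over 3.85 to 4.33. Its 3 h arrays lay below all time 0 and all 9 h arrays once unrounded values were compared, while time 0 and 9 h overlapped, with a fall of 0.54 and a return of 0.75. AT3G16350, a MYB-related factor, had time 0 values of 7.67, 7.20 and 7.24, against 5.80 to 7.14 with a median of 6.78 at 3 h and 6.89 to 7.62 with a median of 7.43 at 9 h. All of its 3 h arrays were below its time 0 arrays, and the 9 h arrays were back at that level. AT3G24190, an atypical kinase of the ABC1 family, read 6.03, 5.09 and 5.71 at time 0, 4.26 to 5.43 with a median of 4.91 at 3 h, and 5.10 to 6.03 with a median of 5.68 at 9 h. Its replicate 2 at time 0 was within the 3 h range.

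AT3G52740 encodes BIC1, an inhibitor of the blue-light receptors called cryptochromes. Its time 0 arrays read 5.38, 4.95 and 4.92, its 3 h arrays 3.75 to 5.42 with a median of 4.54, and its 9 h arrays 5.13 to 6.14 with a median of 5.64. Its return of 1.02 was larger than its fall of 0.51, and its highest 3 h array was above all time 0 arrays. AT3G26510, which has a PB1 protein-interaction domain, showed the other order. It read 7.25, 6.94 and 6.89 at time 0, 5.25 to 6.56 with a median of 6.05 at 3 h, and 5.30 to 6.86 with a median of 6.48 at 9 h. All of its 3 h and all of its 9 h arrays were below every time 0 array, and the fall of 1.06 was followed by a return of 0.41. Other regulators were AT1G13640 of the phosphatidylinositol 3- and 4-kinase family, with a fall of 0.59 and a return of 0.52, and the drought-inducible linker histone HIS1-3, with 0.66 and 0.40. ARL, which promotes cell expansion in aerial organs, had 0.40 and 0.43. Of the 13 regulator rows 8 were above their time 0 level at 9 h.

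The 7 genes of the wall and secreted proteins had the largest median fall of the role groups, 0.63, with a median return of 0.44. XTH26, a xyloglucan endotransglucosylase/hydrolase, had the largest fall of all members, 1.17 or 2.24-fold. Its time 0 arrays read 7.63, 5.87 and 5.21, so the replicates spanned more than the fall. Its 3 h arrays ran from 4.31 over a median of 4.96 to 6.04, and its 9 h arrays from 4.29 over 5.73 to 6.94. The groups overlapped, and replicate 1 at time 0 stood above every other value of this gene.

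The class III peroxidase AT3G49960 had the same layout, with 7.59, 6.59 and 5.31 at time 0, 4.77 to 6.79 with a median of 5.80 at 3 h and 5.25 to 7.20 with a median of 6.55 at 9 h. The extensin-like AT3G54580 read 6.61, 5.79 and 4.58 at time 0, 3.80 to 6.16 with a median of 5.38 at 3 h and 4.79 to 6.87 with a median of 5.55 at 9 h. AT5G57625, a secreted protein of the PR-1 superfamily, read 9.18, 8.28 and 7.93 at time 0, 6.89 to 8.74 with a median of 7.81 at 3 h and 7.47 to 8.98 with a median of 8.45 at 9 h. In all 4 of these wall genes replicate 1 was highest and replicate 3 lowest at time 0. Only replicate 1 lay above the 3 h range of its gene, and every other time 0 array lay within that range. The other class III peroxidase, AT5G19890, had a fall of 0.48 and a return of 0.81, and the aspartyl proteases AT5G19110 and AT5G19100 had falls of 0.63 and 0.65 and returns of 0.74 and 0.42.

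**Figure D2:**
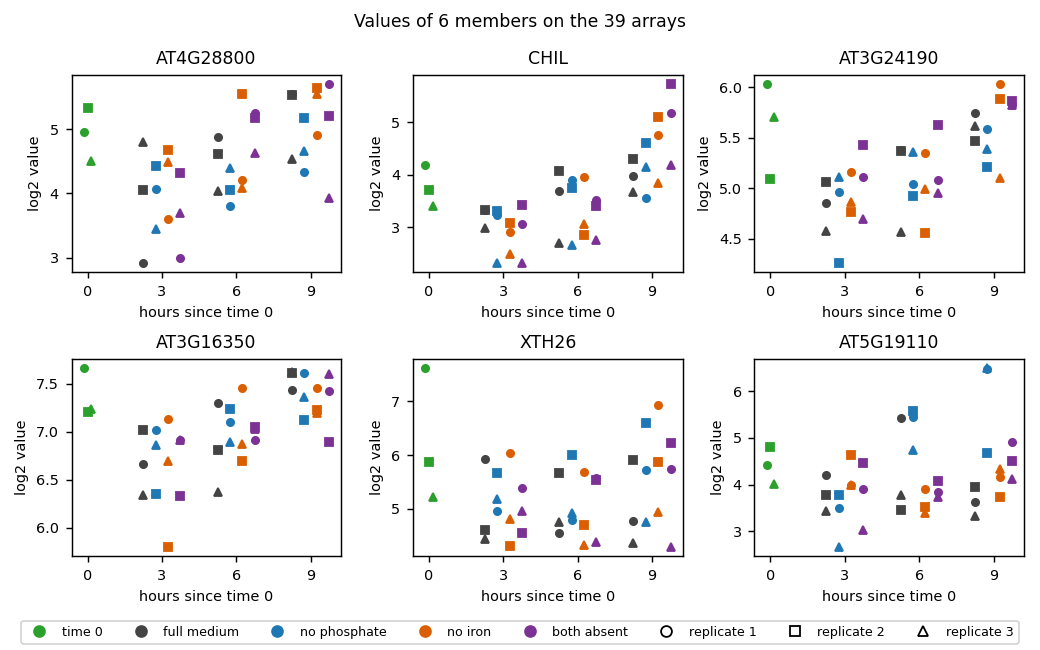
Deposited log2 values of 6 members on all 39 arrays, by hours since time 0 (x axis) and medium, 1 panel a gene: AT4G28800, CHIL, AT3G24190, AT3G16350, XTH26 and AT5G19110. CHIL has every 9 h array above every 3 h array, XTH26 has 1 time 0 array at 7.63 above all of its other values, and AT5G19110 reaches 6.51 only without phosphate at 9 h.

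The 7 genes of specialised metabolism and transport had the highest median return, 0.69, with a median fall of 0.61, and 5 of them were above their time 0 level at 9 h. CHIL, a chalcone isomerase-like protein that aids flavonoid synthesis, read 4.19, 3.70 and 3.4 at time 0. Its 3 h arrays ran from 2.32 over a median of 3.07 to 3.43, and its 9 h arrays from 3.56 over 4.24 to 5.73. Every 9 h array of CHIL was above every 3 h array, and its return of 1.43 was the largest of the set beside a fall of 0.78. AT5G22020, a strictosidine synthase-like protein, read 5.31, 5.12 and 5.14 at time 0, 3.77 to 4.98 with a median of 4.46 at 3 h and 4.82 to 6.50 with a median of 5.66 at 9 h. All of its 3 h arrays were below its time 0 arrays, and most of the 9 h arrays were above them.

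AT3G57020, also strictosidine synthase-like, read 4.03, 3.28 and 3.94 at time 0, 2.13 to 3.3 with a median of 2.72 at 3 h and 2.03 to 4.48 with a median of 3.52 at 9 h. Its return of 0.67 did not reach its fall of 1.01. AT1G47530, a MATE-family efflux transporter, was the member with the highest mean level, 8.63, and read 8.98, 8.63 and 8.96 at time 0, 7.75 to 8.59 with a median of 8.43 at 3 h and 8.54 to 9.13 with a median of 8.90 at 9 h. Its 3 h arrays were all below its time 0 arrays, by little in replicate 2. The HXXXD-type acyltransferase AT1G27620 had a fall of 0.38 and a return of 0.93, the UDP-glycosyltransferase AT5G05880 had 0.61 and 0.52, and the glutathione S-transferase GSTF3 had 0.45 and 0.69.

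The 7 genes of primary and lipid metabolism had a median fall of 0.55 and a median return of 0.43. AT4G33150, the bifunctional enzyme LKR/SDH that degrades lysine, read 7.71, 7.09 and 7.58 at time 0, 5.83 to 7.36 with a median of 6.75 at 3 h and 6.82 to 7.58 with a median of 7.26 at 9 h. Replicate 2 at time 0 lay within the 3 h range. AT5G49900, a beta-glucosidase of the GBA2 type, had a fall of 0.55 and a return of 0.45, and AT3G06460, a fatty acid elongase of the ELO type, had 0.45 and 0.67. The 7 genes of protein turnover, immune receptors and organelles had the smallest differences, with medians of 0.39 and 0.36. Among them the F-box protein AT3G23880 had a fall of 0.40 and a return of 0.47, and the AFG1-like ATPase AT2G25530 had 0.39 and 0.74.

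The 19 genes without a role here had a median fall of 0.55 and a median return of 0.50, close to the set as a whole. AT3G19030 led them, with 8.39, 7.47 and 8.21 at time 0, 6.25 to 7.81 with a median of 7.27 at 3 h and 7.15 to 8.65 with a median of 7.86 at 9 h. AT5G02550 had a fall of 0.81 and a return of 0.56, AT1G01770 had 0.55 and 0.67, and AT2G18690 had 0.58 and 0.55. AT4G13400 read 3.80, 3.43 and 3.43 at time 0, 2.86 to 3.35 with a median of 3.13 at 3 h and 3.36 to 3.88 with a median of 3.65 at 9 h. Its 3 h arrays lay below all others of these times, and time 0 and 9 h overlapped.

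The 6 h arrays entered neither the fall nor the return. Of the 60 members, 53 had a higher average at 6 h than at 3 h and 7 had an equal or lower one. Within single media 57 were higher in full medium, 41 without phosphate, 40 without iron and 45 without both. The median differences were 0.26, 0.16, 0.15 and 0.29 in that order, and the spread between media was not tested. Averaged over the media, the difference of 6 h minus 3 h had a median of 0.24, against -0.02 over all 8234 rows. It shares the 3 h arrays with the rule, so it is a description. The median member had regained 45.1% of its fall by 6 h, and 26 members had regained at least 50%. GSTF3 and AT5G22555 were at or above their time 0 average at 6 h, and AT1G27620 had regained 97.0%. At the other end were the extensin-like AT3G54580 at -54.3%, the peroxidase AT3G49960 at -24.9% and the lipase AT4G13550 at -20.4%, whose 6 h averages were below those of 3 h. By role, the median difference of 6 h minus 3 h was 0.31 in the regulators and 0.01 in the wall and secreted proteins, and the difference between these medians was not tested. The wall and secreted proteins were split. AT5G19110, AT5G19890 and AT5G19100 were higher at 6 h than at 3 h by 0.46, 0.31 and 0.41, and XTH26, AT3G49960, AT3G54580 and AT5G57625 differed by 0.00, -0.16, -0.23 and 0.01.

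**Figure D3:**
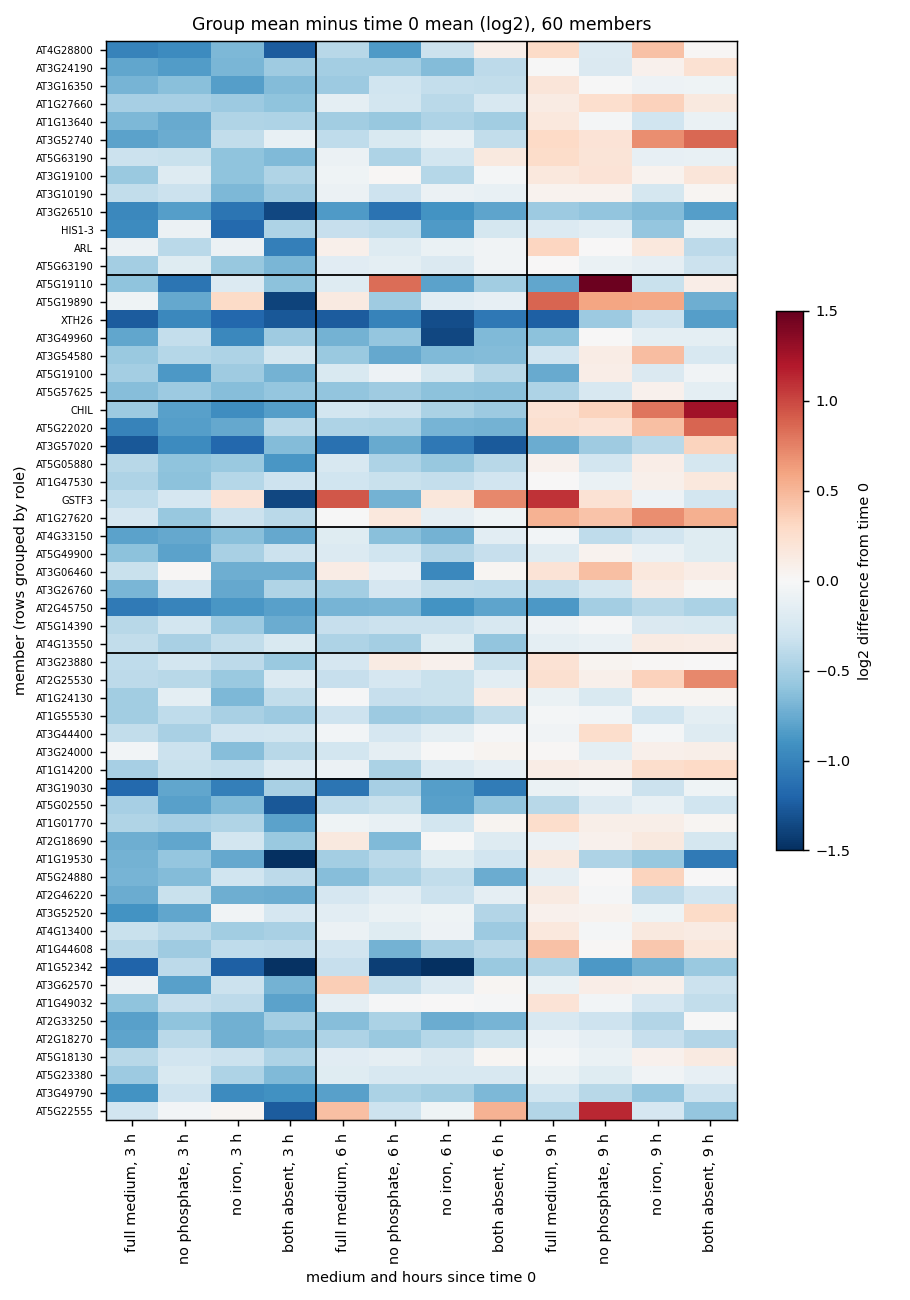
Mean level of each of the 60 members in each group relative to time 0 (log2 difference, colour, clipped at 1.5 in either direction), with rows ordered by role and columns by hours and medium. The 3 h columns are low in nearly all rows of all 4 media, and most 6 h values lie between those of 3 and 9 h.

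The rule averaged over the media and did not use differences between them. The falls and returns within a medium come from the same arrays that chose the members, so positive values are favoured by the choice and are a description. Fall and return were both above 0 in all 4 media for 48 members, in 3 media for 10 and in 2 media for 2, AT5G19110 and AT5G22555. Taken medium by medium, the median fall was 0.55 in full medium, 0.50 without phosphate, 0.56 without iron and 0.59 without both. The median return was 0.57, 0.43, 0.49 and 0.55 in the same order. Both were above 0 for 56, 55, 55 and 60 members, beside 30.1%, 35.4%, 31.7% and 32.9% of all 8234 rows. The 4 media share the time 0 arrays, so their falls are not independent. The medium with the lowest 3 h mean was full medium for 14 members, no phosphate for 12, no iron for 12 and both absent for 22. The highest 3 h mean was in full medium for 10, no phosphate for 24, no iron for 12 and both absent for 14. Low 3 h arrays of 1 medium can bring a row into the set, and the shares over all rows were not counted. Nothing is therefore read from these counts.

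No member passed an adjusted p under 0.05 (limma, Benjamini-Hochberg over all 28501 rows) in any of 13 tests between media. The joint tests of the 4 media called 0 members at 3 h (0.0351% of all rows), 0 at 6 h (0% of all rows), 0 at 9 h (0.0175%) and 0 for the return itself (0.00351%). At an unadjusted p under 0.05 they held 4, 2, 3 and 2 members, or 6.67%, 3.33%, 5% and 3.33% of the set, beside 4.71%, 2.88%, 2.72% and 2.12% of all rows. For no phosphate against full medium the called share of all rows was 0% at 3 h, 0% at 6 h and 0.00702% at 9 h. For no iron it was 0% at each time, and for both absent 0.0246%, 0% and 0.00351%. In these 9 single comparisons 25 of 540 member tests, or 4.63%, had an unadjusted p under 0.05, beside 1.98% to 4.61% of all rows per comparison. The 95% intervals of the differences reached a median of 0.60 to either side, and 0.31 to 1.57 over members, so differences between media of the size of the typical fall were not excluded. For some members named below, the 3 arrays of 2 media did not overlap. How often this occurs between media over the members or over all rows was not counted, so nothing is read from it.

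AT5G19110, the aspartyl protease, came closest to a difference between media. At 9 h its arrays without phosphate read 6.47, 4.68 and 6.51, against 3.62, 3.94 and 3.33 in full medium. Without iron they read 4.16, 3.73 and 4.33, and without both 4.92, 4.50 and 4.12. All 3 arrays without phosphate were above all 3 in full medium, and replicates 1 and 3 were above every time 0 array, which read 4.42, 4.80 and 4.02. The difference at 9 h was 2.26 (SE 0.43, 95% interval 1.37 to 3.14), or 4.78-fold, with an adjusted p of 0.0917 in limma's test. With the replicate number as a block the adjusted p was 0.0285, under the threshold. The same 9 h arrays without phosphate raised the 9 h average by which the rule took the gene in, so these values are no independent support. Among only the rows with a mean of at least 3 the adjusted p was 0.241 in limma's test, and with the compared groups alone it did not pass. Without replicate 2 of the no-phosphate group the difference was 2.86 with an adjusted p of 0.000981 in limma's test. That replicate was the lowest of its group, so leaving it out favours a low p.

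At 6 h AT5G19110 already stood at 5.45, 5.57 and 4.73 without phosphate, against 5.42, 3.46 and 3.78 in full medium, where replicate 1 overlapped, and the difference of 1.03 did not pass (adjusted p of 1.00 in limma's test). At 3 h its difference was -0.50 (95% interval -1.38 to 0.39). Its return was 2.57 without phosphate, 0.71 without both, -0.13 without iron and -0.18 in full medium. The gene therefore met the rule through the media without phosphate. The next protease gene, AT5G19100, is also a member, and 1 gene lies between the pair in RefSeq's gene order. Its 9 h arrays read 3.93, 3.91 and 4.35 without phosphate and 3.62, 2.94 and 3.05 in full medium, which did not overlap. The difference was 0.86 (SE 0.33) with an adjusted p of 1.00 in limma's test. The genes further along did not share it, with differences of 0.08 for AT5G19120, -0.11 for AT5G19130 and 0.13 for AILP1. Whether the probes of the pair tell the proteases apart was not tested.

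The largest ranges of medium means at 3 h belonged to AT5G19890, GSTF3, AT1G19530 and AT5G22555, all lowest without both nutrients. Their falls were 1.39, 1.37, 1.96 and 1.25 there, against 0.07, 0.38, 0.71 and 0.29 in full medium. The low arrays without both raised the average fall by which the rule took them in. These 3 h differences are therefore no independent support. The peroxidase AT5G19890 had the largest range of medium means at 3 h, 1.68. Its 3 h arrays read 5.64, 5.02 and 6.84 without both and 7.43, 6.45 and 7.60 in full medium. At 9 h they read 7.09, 6.44 and 5.94 against 8.53, 8.25 and 7.53. The 9 h arrays did not overlap and the 3 h arrays did. The differences were -1.32 (SE 0.57) at 3 h and -1.61 (SE 0.57) at 9 h, and neither passed in limma's test (adjusted p of 1.00 for both).

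AT1G19530, which has no role given here, read 5.82, 5.33 and 6.94 at 3 h without both, against 6.06, 7.76 and 8.03 in full medium, a difference of -1.25 (SE 0.42). At 9 h it read 7.23, 6.02 and 7.53 against 8.39, 7.86 and 8.15, a difference of -1.21. The 9 h values did not overlap, while replicate 1 of full medium at 3 h was within the other group. In limma's test the adjusted p was 0.859 at 3 h, and with array quality weights it was 0.0354 with a difference of -1.55. GSTF3 had the second largest range at 3 h, 1.57, but its replicates without iron ran from 1.95 to 5.18, and its difference without both of -0.99 (SE 0.70) was within that spread. AT5G22555 had a range of 1.29.

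Other members stood apart from full medium at 3 h by amounts that did not pass the test across all rows. Without both nutrients, ARL read 6.16, 5.59 and 5.18 against 6.69, 6.25 and 6.79, a difference of -0.93 (SE 0.37), and its groups did not overlap. Its fall was 1.02 without both and 0.09 in full medium, so these low arrays also raised the fall that chose it. Any member low in 1 medium at 3 h shares this limit. In the other direction were AT3G52740 (BIC1) at 0.69 (SE 0.35), AT3G19030 at 0.68 (SE 0.39) and AT3G52520 at 0.65 (SE 0.29). Without iron, AT3G52520 read 4.32, 5.33 and 4.04 against 4.04, 3.47 and 3.64, a difference of 0.85 (SE 0.29), with the lowest array without iron level with the highest of full medium. GSTF3 and AT2G18690 were higher by 0.58 and 0.46, and AT3G24000, a pentatricopeptide repeat protein, AT3G06460 and CHIL lower, at -0.60, -0.39 and -0.39. Without phosphate, HIS1-3 read 5.31, 6.52 and 5.82 against 4.28, 4.83 and 5.98, a difference of 0.85 (SE 0.46) with overlap. AT1G52342 stood at 0.81 and AT3G49790 at 0.59. AT3G62570, AT5G19890 and AT5G19110 were lower, at -0.72, -0.70 and -0.50. All adjusted p in limma's tests of these were at least 0.859.

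At 9 h CHIL was higher without both nutrients, at 5.17, 5.73 and 4.19 against 3.97, 4.30 and 3.67, with 1 array overlapping and a difference of 1.05 (SE 0.41). AT3G57020 differed there by 1.07 (SE 0.46). The short-chain dehydrogenase AT3G26760 read 5.43, 5.29 and 5.41 without iron at 9 h against 4.65, 4.90 and 5.11, without overlap and with a difference of 0.49 (SE 0.18). These did not pass either. The media were closest at 3 h for AT5G57625, with a range of medium means of 0.09, AT1G27660 with 0.11, AT1G44608 with 0.15 and AT1G55530, a RING-type protein, with 0.16. For AT1G27660 the difference of no phosphate against full medium at 3 h was 0.01 with a 95% interval of -0.43 to 0.44, so its closeness is known only to about that width.

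The choice was repeated with 1 replicate number left out, and fall and return were then read in the left-out arrays. The 60 rows chosen without replicate 1 shared 29 with the set, and their median fall and return of 0.48 and 0.47 became 0.45 and 0.35 in replicate 1, with both above 0 in 58.3% of the rows against 30.2% of the 8230 rows that could be chosen. Without replicate 2, 41 were shared, and the medians of 0.57 and 0.50 became 0.43 and 0.33, with 78.3% against 38.8% of 8221. Without replicate 3, 43 were shared, and 0.67 and 0.58 became 0.20 and 0.23, with 55.0% against 26.3% of 8225. In all 3 cases the held-out differences were smaller than those of the arrays that chose the rows, and least in replicate 3. The whole set was weakest there too, with a median fall of 0.76, 0.54 and 0.41 and a median return of 0.65, 0.44 and 0.32 in replicates 1, 2 and 3.

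Of the members, 14 were chosen in all 3 repeats, 27 in 2, 17 in 1 and 2 in 0. The 14 were the factors and kinases AT4G28800, AT1G27660, AT3G16350, AT3G24190 and AT1G13640, the metabolic and transport genes CHIL, AT5G22020, AT4G33150 and AT1G47530, the protease AT5G19110, and AT3G19030, AT5G02550, AT1G01770 and AT5G24880. Fall and return were above 0 in each replicate number for 48 members. XTH26 was not one of them, since its fall was 2.05, 1.08 and 0.36 and its return 0.22, 1.36 and -0.27 in replicates 1, 2 and 3. The peroxidase AT3G49960 had a fall of 1.17, 0.89 and -0.08.

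**Figure D4:**
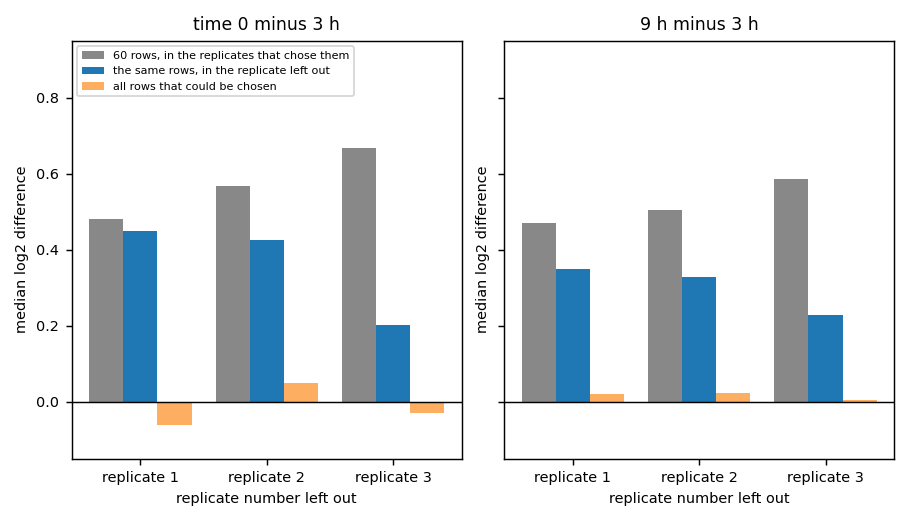
Median fall and median return (log2 difference) of 60 rows chosen from 2 replicate numbers, in the arrays that chose them (grey) and in the left-out replicate (blue), beside all rows that could be chosen, in the latter (orange). The held-out medians are lower in each case, with a fall of 0.45, 0.43 and 0.20 in replicates 1, 2 and 3.

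How members varied among the replicates of a group was not used by the rule. Over the 39 arrays, deviations from group means had a mean pairwise correlation of 0.105 among the members and 0.029 among all 8234 rows, so the set as a whole moved together little. The arrays share their plants and their normalization, and the values are a description. Grouping the members by these correlations, with an average of at least 0.5 within a block, gave 6 blocks of at least 4 rows. This grouping was chosen after the data had been seen. The largest held 15 rows with a mean correlation of 0.62, among them AT4G33150 (LKR/SDH), AT3G26510, HIS1-3, AT1G01770, AT1G19530 and both rows of AT5G63190, which correlated at 0.82.

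The second block held XTH26, the peroxidase AT3G49960, the extensin-like AT3G54580, AT5G57625, the elongase AT3G06460 and the methyltransferase AT2G45750, with a mean correlation of 0.72. Its highest pairs were XTH26 with AT3G49960 at 0.89 and AT3G54580 with AT5G57625 at 0.87. Its mean at time 0 was 6.84, 6.03 and 5.36 in replicates 1, 2 and 3, and its 3 h arrays ran from 4.41 to 6.12. Over all groups replicate 3 was low in this block, with mean deviations of 0.28, 0.15 and -0.43. The rows outside the set that were most like it were GH9C1 (0.95), an endoglucanase of root hairs, AT4G26010 (0.93), AT5G06630 (0.93) and HRGP1 (0.90), an extensin-type glycoprotein. These 4 had falls of 0.53, 0.50, 0.79 and 0.61 and returns of 0.11, 0.15, 0.10 and 0.21. Rows outside the set with falls of this size must have returns below its border, since they would otherwise be members. Nothing is therefore read from their low returns. The root hair expansins EXPA7 and EXPA18 were lower at 3 h than at time 0 by -0.42 (SE 0.29) and -0.61 (SE 0.31), which did not pass, and their 9 h minus 3 h differences were -0.01 and -0.04. The share of root hair material in each sample was not measured, and its part in these 6 members was not tested.

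The third block held CHIL, AT5G22020, AT3G52740 (BIC1), AT1G44608 and the ATPase AT2G25530, with a mean correlation of 0.66. Its median fall was 0.51 and its median return 1.02, so its members ended above time 0. Replicate 3 was also low in this block, with mean deviations of 0.19, 0.17 and -0.36. The next block joined AT3G24190, AT3G57020, AT1G27660, AT1G47530 and AT2G33250 at 0.61. Another joined AT4G28800, AT2G18690, GSTF3 and AT5G22555 at 0.62, with time 0 means of 4.53, 5.72 and 4.21, and the last joined AT5G02550, AT3G19100, AT3G62570 and AT1G27620 at 0.59.

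**Figure D5:**
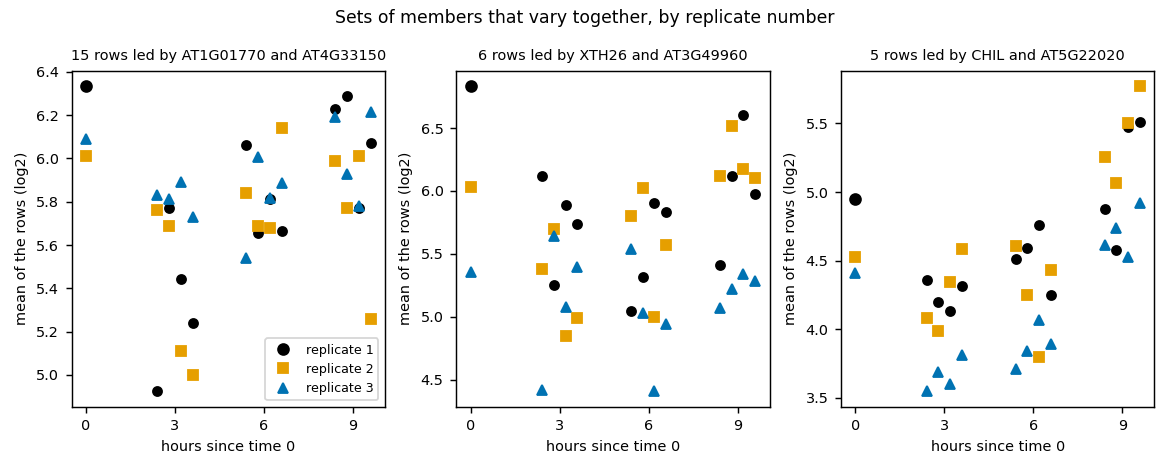
Mean deposited log2 value of the first 3 co-varying blocks on each array, by hours since time 0 (x axis) and replicate number. In the second block (XTH26 and 5 others) the time 0 arrays are spread from 5.36 to 6.84 by replicate, and the third block (CHIL and 4 others) ends above its time 0 level.

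Genes of related pathways, taken from 15 lists, were set beside the members in 2 contrasts that the members' choice used: all media at 3 h against time 0, where 0.961% of all rows were lower and 1.11% higher in limma's test, and all media at 9 h against 3 h, where 1.49% were higher and 1.40% lower. At an unadjusted p under 0.05 in limma's test, 7.32% of all rows were lower and 5.43% higher at 3 h. At 9 h against 3 h, 7.12% were higher and 5.57% lower. Of the members themselves, 6 were called lower at 3 h and 30 higher at 9 h, which follows from the choice. As for the tissue markers, a listed gene has a row here only if RefSeq held its name and a row named it alone. The other listed genes may still be measured. Among expansins and xyloglucan enzymes 16 of 33 listed genes had a row, XTH26 as the only member. XTH26 itself was called in neither contrast, with -1.17 (SE 0.49, adjusted p of 0.285 in limma's test) and 0.44 (SE 0.31, adjusted p of 0.638). Of the other 15, limma called 0 in either contrast, with 2 and 1 at an unadjusted p under 0.05. Their median differences were 0.13 for 3 h minus time 0 and -0.13 for 9 h minus 3 h, opposite in sign to XTH26. In 0 of these 15 was the 3 h mean below time 0 and the 9 h mean above 3 h. By the same count without a test, this order was seen in 6 of 16 auxin genes and 3 of 4 iron genes. It was seen in 2 of 7 stress-induced genes, 1 of 4 cytokinin genes and 0 of the genes with a row in the other lists. Within single media, 30.1% to 35.4% of all rows that met the rule's conditions had this order. The share by averages over the media was not counted, and the lists also hold rows with a mean below 3. The iron genes with this order differed between 3 h and time 0 by less than their SE. These were BHLH101 at -0.02 (SE 0.11), PYE at -0.11 (SE 0.16) and ILR3 at -0.06 (SE 0.13). Nothing is therefore read from these counts.

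Of 75 listed auxin genes 16 had a row and none was a member. At an unadjusted p under 0.05 limma gave 7 of the 16 at 3 h against time 0 and 2 at 9 h against 3 h. The unadjusted counts of this and the next lists stand beside 7.32% of all rows lower and 5.43% higher at 3 h. In the second contrast the shares of all rows were 7.12% higher and 5.57% lower. The lists are small, and their counts were not tested against these shares. WES1, which conjugates auxin to amino acids, was lower at 3 h by -0.91 (SE 0.15, adjusted p of 0.000276 in limma's test), and the auxin repressor gene IAA34 by -0.56 (SE 0.15, adjusted p of 0.0475). Their 9 h minus 3 h differences were 0.12 and 0.05. GH3.17 fell by 0.67 between 3 and 9 h (adjusted p of 0.000477 in limma's test) and IAA18 rose by 0.36 (adjusted p of 0.0113). Among 7 measured stress-induced genes, 4 and 3 had an unadjusted p under 0.05 in limma's test in the 2 contrasts, in both directions. At 3 h PUB22 was higher than at time 0, by 0.31 (SE 0.15), while PUB23 and PUB24 differed by -0.59 (SE 0.19) and -0.46 (SE 0.14). From 3 to 9 h PUB23 differed by 0.28 (SE 0.12) and CML38 by -0.39 (SE 0.18). DREB2C, a transcription factor of dehydration responses, rose by 0.85 to 3 h (adjusted p of 0.0265 in limma's test) and by 0.59 from 3 to 9 h (adjusted p of 0.00849). The clock gene GI rose by 1.07 to 3 h (adjusted p of 4.12e-05 in limma's test) and was the only one of 24 listed clock genes found with a row of its own. Of 29 listed phosphate starvation genes 2 had a row. LPR2 was higher at 3 h by 0.97 (adjusted p of 0.000385) and LPR1, a ferroxidase of the root tip, rose by 0.53 from 3 to 9 h (adjusted p of 0.00239), both in limma's test. Of 33 listed iron genes 4 had a row, and limma called 0 in either contrast, with 0 and 1 at an unadjusted p under 0.05. Of 33 cytokinin genes 4 had a row, with 0 called and 0 and 2 at an unadjusted p under 0.05 in limma's test.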

How the data were processed

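Root RNA (100 ng per sample) was measured on 39 one-colour whole-transcript arrays. Per the submitters' processing notes, the authors used Affymetrix Expression Console, GCRMA and Transcriptome Analysis Console, without stated versions. GCRMA corrects background by probe sequence, normalizes between arrays and summarises probes. The deposited values (0.141 to 12.8, array medians 3.34 to 3.45) were read as log2, which is inferred from their range, and every fold depends on it. The number of arrays limits precision.

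Gene names come from the array platform's annotation, with 58 of 60 members matched in RefSeq. Rows were tested with limma 3.58.1 in R 4.3.3 (1 mean per group, eBayes), adjusted over 28501 rows and called under 0.05, after a check on simulated data. The simulated noise was independent between arrays, so that check could not show the effect of replicates that deviate together. Differences between media and 2 contrasts over all media were tested. The latter, the likeness to blocks and the roles were chosen after the data had been seen. Members and lists were chosen with earlier results of these data known. Named members are the 15 highest by the rule, the 3 on either side of its border, those with the widest and narrowest spread or largest differences between media at 3 h, the extremes at 6 h, and the leaders of each role; others are named with an unadjusted p under 0.05 between media, non-overlapping groups or block membership, after their values were seen. Alternatives were a replicate block, quantile normalization, a level filter, array weights, fewer groups and leaving out arrays. Same-numbered replicates deviated together, with every pair's correlation over 0.1, in 5 of 12 comparisons, among them no phosphate against full medium at 9 h. Promoter and protein sequences were not analysed here. In the lists of brassinosteroid and gibberellin synthesis and of nitrate response, 0 genes were found with a row of their own. This does not show that the array lacks them. In those of ethylene and jasmonate (2 of 42 with a row), sulfur (1 of 24) and cell cycle (1 of 30), limma called 0 genes in the 2 contrasts over all media. The ethylene and jasmonate list had 1 gene at an unadjusted p under 0.05 in limma's test.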

Additional observations from a re-analysis of the deposited data

How the results depend on the processing

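The differences between media kept their direction in every alternative run for the 25 that had an unadjusted p under 0.05: 271 alternative values stayed on the same side of the threshold and 4 passed it. These 25 were picked for a low p, and the alternatives reuse largely the same arrays. A change of direction was therefore unlikely from the outset, and the kept direction is no independent support. The replicate block called 1 member for no phosphate against full medium at 9 h (AT5G19110, adjusted p of 0.0285 in limma's test) and changed no other member's call. Array weights called 1 member there (AT5G19110, 2.22) and 1 for both absent against full medium at 3 h (AT1G19530, -1.55). Leaving out single arrays gave 0 to 1 members for no phosphate at 9 h, for the joint test at 9 h and for the return. The 1 came each time without replicate 2 of the no-phosphate group at 9 h, where AT5G19110 differed by 2.86. Over all alternatives its adjusted p ran from 0.000981 to 1.00, the latter with the compared groups alone. The causes were not tested.

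Over all rows, calls for both absent at 3 h were 7, with 77 under array weights, 2 with the compared groups alone and 0 to 19 with arrays left out. The joint test at 3 h called 10, 41, 5 and 5 to 17 rows in that order, and 15 with the block. At 9 h it called 5, 14, 1 and 1 to 15, and 0 with rows of a mean of at least 3 only. The return called 1, 2, 0 and 0 to 6. No phosphate at 9 h called 2, 5, 0 and 0 to 11, and 3 with the block. Both absent at 9 h called 1, 2, 0 and 0 to 2. Where 0 were called, no iron at 9 h gave 4 and no phosphate at 3 h gave 1 with array weights.

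Membership depended on the rule's details. Of the 60 members, 35 stayed with medians in place of means, 26 with full medium alone, which uses fewer arrays, 55 after quantile normalization, 55 and 45 with a minimum mean of 2 and 4, and 29 to 49 with a replicate number or a time 0 array left out.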
